A study of Mus musculus with 10 samples.

Results

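The 8 genes described here are the 4 members of the Pde4 family (Pde4a, Pde4b, Pde4c, and Pde4d) together with Pde3b, Crem, Camk2b, and Rap1gap, out of 21939 genes in the table of hepatocyte RNA. They were chosen by symbol with their counts in the 4 genotypes already known. Their levels and differences between genotypes are therefore given as a description and carry no p-value. All 8 genes were found by their Ensembl identifier, and all 8 were among the 13641 genes with 10 or more counts in total, which were tested.

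In hepatocytes, glucagon and adrenaline act through cAMP and calcium. Adenylyl cyclases make cAMP, which activates protein kinase A and the exchange factor Epac, and phosphodiesterases end the signal by hydrolyzing it. The Pde4 enzymes are specific for cAMP, whereas Pde3b also accepts cGMP and is known as the phosphodiesterase through which insulin lowers cAMP. Crem encodes activators and repressors of the CREB family, including the inducible repressor ICER, which bind cAMP-response elements. Camk2b is the beta subunit of calcium/calmodulin-dependent kinase II, and Rap1gap switches off Rap1, the small GTPase that Epac switches on.

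RNA was sequenced from freshly isolated hepatocytes of 10 adult male mice, with 1 library per mouse, and the labels give an age of 8 to 9 weeks. The study's methods give a higher age for mice 12 days after knockout induction in another experiment. The age in the labels may therefore be that at injection of the virus. By their labels, 3 mice were controls, 2 were Nrf2 KO, 2 were p65 KO, and 3 were Nrf2:p65 DKO, given as DKO below. Control mice were wild-type C57BL/6J animals, and the other groups carried floxed alleles of Nrf2, of p65, or of both genes on the same background. All mice, controls included, received AAV8Cre, in which the thyroxine-binding globulin promoter restricts Cre to hepatocytes, and were analyzed 12 days later. Floxed mice without Cre are not part of the comparisons, and the experiment concerns the acute loss of both transcription factors in adult hepatocytes. Non-parenchymal cells keep both genes.

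Total counts per library were between 33707165 and 49897382. The total for Nfe2l2, the gene of Nrf2, was higher and not lower in the libraries labelled Nrf2 KO and DKO, at 4739 and 5005 normalized counts and at 4111, 3434, and 5239.5, compared with 1990.2 to 2318 in control. Rela, the gene of p65, was at 1183 and 1209 in p65 KO and at 1221 to 1276 in control. A total over a whole gene includes transcripts that lack a deleted exon and does not check the deletion, so that genotypes are given as labelled. Hepatocyte markers were high in every library, with a summed level of 3659850 to 5727830. Summed Kupffer cell and macrophage markers were at 375 to 951 normalized counts in control, 263 and 816 in Nrf2 KO, 4518 and 6236 in p65 KO, and 1706 to 2935 in DKO. The p65 KO and DKO libraries were thus above all others in Kupffer cell markers, and also in markers of sinusoidal endothelial cells, whereas stellate cell markers were separate from the other genotypes in p65 KO alone. Markers of monocytes and dendritic cells were also higher in every p65 KO and DKO library than in all others. Their sums were 222 and 252 in p65 KO, 88.1 to 165 in DKO, 45.3 to 68.8 in control, and 58.2 and 77.1 in Nrf2 KO. The same held for neutrophil markers, at 14.2 and 76.2, 9.15 to 35.8, 3.74 to 7.87, and 7.91 and 8.89 in the same order of genotypes. These sums are very low, and DKO and Nrf2 KO were apart only by 9.15 against 8.89. Of 5 neutrophil markers tested, 1 was higher in p65 KO and none passed in DKO. Lymphocyte markers followed another order. Summed B cell markers were at 58.9 and 76.6 in p65 KO and 86.1 to 392 in control, and T and NK cell markers were at 14.0 to 36.4 in control, 62.2 and 63.3 in Nrf2 KO, 37.8 and 38.6 in p65 KO, and 67.5 to 168 in DKO. Of 4 B cell and 6 T and NK cell markers tested, 1 T and NK cell marker was higher in DKO. No other lymphocyte marker passed in any knockout. Markers of cholangiocytes and erythroid cells overlapped between p65 KO and control. Summed cholangiocyte markers were lower in Nrf2 KO (151 and 196) than in control (268 to 393). Summed erythroid markers were higher in DKO (4730 to 5605) than in control (3362 to 4675). No tested marker of these 2 lists passed in any knockout. In bulk RNA, fewer cells of a type and less RNA per cell cannot be told apart.

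The members lie on 7 chromosomes of GRCm39. Pde4b is at chr4:101944740-102465716 on the plus strand and spans 521 kb, and Pde4d is at chr13:108586482-110092497 on the plus strand and spans 1506 kb. Both genes have many start sites, and 9 windows around protein-coding start sites were read for Pde4b and 12 for Pde4d. Shown are the windows of these genes with the most matches to 5 motifs that bear on cAMP, Nrf2, and NF-κB, since Pde4b and Pde4d differed most between genotypes within the family. Each sequence holds the 250 bases before the start site, overlaps no annotated exon, and has the motif matches in capitals.
Pde4b, GRCm39 chr4:102446670-102446919, plus strand: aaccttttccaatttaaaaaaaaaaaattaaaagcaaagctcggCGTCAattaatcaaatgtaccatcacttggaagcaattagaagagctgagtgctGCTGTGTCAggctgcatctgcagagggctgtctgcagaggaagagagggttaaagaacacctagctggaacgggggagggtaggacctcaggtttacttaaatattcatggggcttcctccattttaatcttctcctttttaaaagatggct
Pde4d, GRCm39 chr13:109396938-109397187, plus strand: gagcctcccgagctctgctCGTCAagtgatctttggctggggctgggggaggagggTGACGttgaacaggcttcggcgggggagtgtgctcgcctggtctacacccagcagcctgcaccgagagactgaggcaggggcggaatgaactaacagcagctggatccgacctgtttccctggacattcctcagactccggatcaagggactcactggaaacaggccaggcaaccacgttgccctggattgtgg

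In the Pde4b window, the capitals mark a short CRE (TGACG) on the minus strand and an ARE core (TGACNNNGC), the letters of the antioxidant response element, also on the minus strand. In the Pde4d window, they mark 2 short CREs, 1 on each strand. The search covered both strands of windows from 250 bases before to 50 bases from each start site on, for the CRE palindrome TGACGTCA (which contains the short CRE), the short CRE, the ARE core, the kappaB motif, and the E-box CACGTG. Over 67094 such windows of 21356 genes, these were found in 1.97%, 22.3%, 12.5%, 1.64%, and 7.6% of windows. Crem was the member with the most matches, with the palindrome in 6 and the short CRE in 13 of its 20 windows. Windows of nearby start sites overlap, so that these are 3 distinct palindromes and 11 distinct short CREs, counted on each strand and within palindromes too. Among the other members, the short CRE was present in 1 of 4 windows of Pde4a, 2 of 9 of Pde4b, 2 of 12 of Pde4d, and the only window of Pde3b, and the kappaB motif was present in 1 window of Pde4d. The ARE core was present in 1 of 4 windows of Pde4a, 1 of 9 of Pde4b, and 3 of 20 of Crem (2 distinct matches), beside 12.5% of all windows. Pde4c, Camk2b, and Rap1gap had no match in any window. A match is a description of letters, and the counts do not tell which start site was used.

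Levels of different genes were compared per length, as CPM (normalized counts scaled to the library size) per kb of merged exons. In control hepatocytes, Pde3b had the highest level, at 4.77 ± 0.526 (SD, n = 3). Crem was at 2.33 ± 0.519 and Pde4c at 2.05 ± 0.345, and these neighbors did not differ beyond their spread. Pde4b followed with 0.695 ± 0.236. Rap1gap with 0.391 ± 0.175, Camk2b with 0.375 ± 0.242, and Pde4a with 0.363 ± 0.083 were within their spread of each other, and the ranges of Rap1gap and Camk2b overlapped that of Pde4b. Pde4d was lowest with 0.264 ± 0.0361. Its range of 0.222 to 0.287 was below that of Pde4a (0.307 to 0.458) and overlapped those of Rap1gap and Camk2b.

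The 4 Pde4 genes together were at 3.29, 3.87, and 2.96 CPM per kb in the control libraries, 5.48 and 5.60 in Nrf2 KO, 3.08 and 2.50 in p65 KO, and 4.27, 4.57, and 4.14 in DKO. Every Nrf2 KO and DKO library was above every control and p65 KO library. The composition also differed. Pde4c made up the largest part of the family in each of the 10 libraries, with 45.1% to 70.3%. With the longest transcript as length, this held in 9 libraries, and in Nrf2 KO library 2 the largest part was Pde4b with 47.9%, compared with 41.1% for Pde4c. By merged exons, Pde4b accounted for 36.5% and 43.7% in Nrf2 KO but for 15.5% to 28.3% in all other libraries. Pde4d accounted for 7.41% to 8.59% in control, 5.97% and 6.64% in p65 KO, and 1.59% to 3.41% in Nrf2 KO and DKO.

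**Figure D1:**
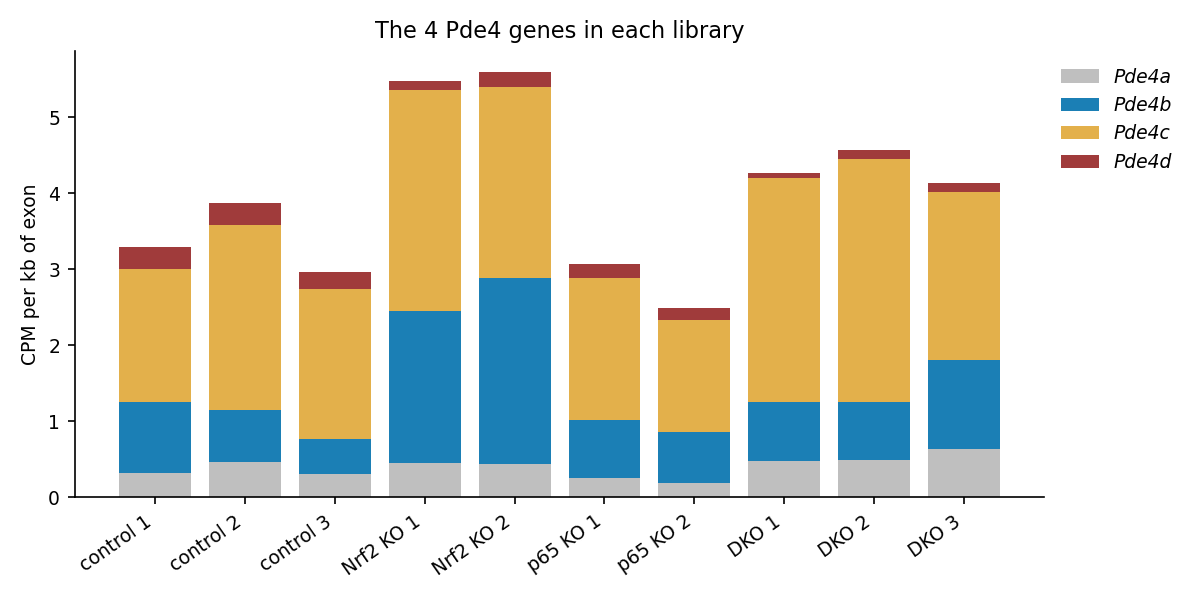
Stacked bars show the level of the 4 Pde4 genes in each of the 10 libraries, in CPM per kb of merged exons. The Nrf2 KO bars reach 5.48 and 5.60 through a larger Pde4b part, and the Pde4d part is larger in each control bar (0.222 to 0.287) than in any knockout bar.

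Pde4b, the form best known from immune cells and inflammation, was highest in the Nrf2 KO libraries. Normalized counts were 424, 317, and 209 in control, 909.5 and 1114 in Nrf2 KO, 349 and 306 in p65 KO, and 349, 343, and 532 in DKO. Both Nrf2 KO libraries were above all other libraries, whereas control, p65 KO, and DKO overlapped. Compared with control, Pde4b differed by 1.68 ± 0.266 (SE) on the log2 scale in Nrf2 KO, a 3.20-fold higher level. The values for p65 KO and DKO were 0.05 ± 0.275 and 0.37 ± 0.246. Between DKO and Nrf2 KO, the log2 fold change was -1.31 ± 0.265, and all 3 DKO libraries were below both Nrf2 KO libraries. In Nrf2 KO, where Pde4b was highest, none of the 12 Kupffer cell and macrophage markers passed the test, and their sum overlapped that in control. In p65 KO, where all 12 markers were higher at an adjusted p of at most 0.05 (edgeR), Pde4b overlapped control. Summed T and NK cell markers were at 62.2 and 63.3 in Nrf2 KO and 14.0 to 36.4 in control. They were at 37.8 and 38.6 in p65 KO and 67.5 to 168 in DKO. Of the 10 markers in these sums, 6 were at 0 in Nrf2 KO and 8 in control. Of the 6 tested by edgeR, none passed in Nrf2 KO or p65 KO, and 1 was higher in DKO. The part of other cell types in the Pde4b level was not tested.

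Pde4d, which is widely expressed and has many long and short forms, was highest in control. Its counts were 158, 160.3, and 124 in control, 64.3 and 107 in Nrf2 KO, 103 and 92.6 in p65 KO, and 37.9, 59.5, and 69.8 in DKO. All 7 knockout libraries were below the 3 control libraries. Log2 fold changes against control were -0.78 ± 0.31 for Nrf2 KO, -0.59 ± 0.308 for p65 KO, and -1.40 ± 0.283 for DKO. Mean levels were, from high to low, in the order control, p65 KO, Nrf2 KO, DKO, but the single knockouts overlapped each other, as did Nrf2 KO and DKO, while DKO was below both p65 KO libraries. The estimate of the interaction, which asks whether both losses together differ from the sum of the single losses, was -0.03 ± 0.43 for Pde4d.

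Pde4a, another broadly expressed member, was lowest in p65 KO. Its counts were 106, 150.5, and 101 in control, 148 and 144 in Nrf2 KO, 82.3 and 59.5 in p65 KO, and 158, 163, and 211 in DKO. Both p65 KO libraries were below all others and all DKO libraries were above all others. On the log2 scale, the difference from control was 0.29 ± 0.245 for Nrf2 KO, -0.75 ± 0.259 for p65 KO, and 0.57 ± 0.221 for DKO. Between DKO and p65 KO, it was 1.32 ± 0.261.

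Pde4c, the family member with the highest level per kb of merged exons in every library, differed less. Its counts were 417, 578, and 470 in control, 693 and 601 in Nrf2 KO, 446 and 352 in p65 KO, and 703, 764, and 525 in DKO. Nrf2 KO was above control, DKO was above p65 KO, and the other neighbors overlapped. The log2 fold changes against control were 0.40 ± 0.19, -0.29 ± 0.195, and 0.44 ± 0.172 in Nrf2 KO, p65 KO, and DKO. Across the 10 libraries, Pde4a and Pde4c had the highest Pearson correlation among the 28 pairs of members (r = 0.792 on log2 counts), and Pde4c and Pde4d the lowest (r = -0.591). These points share genotype and library, and the values are a description.

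**Figure D2:**
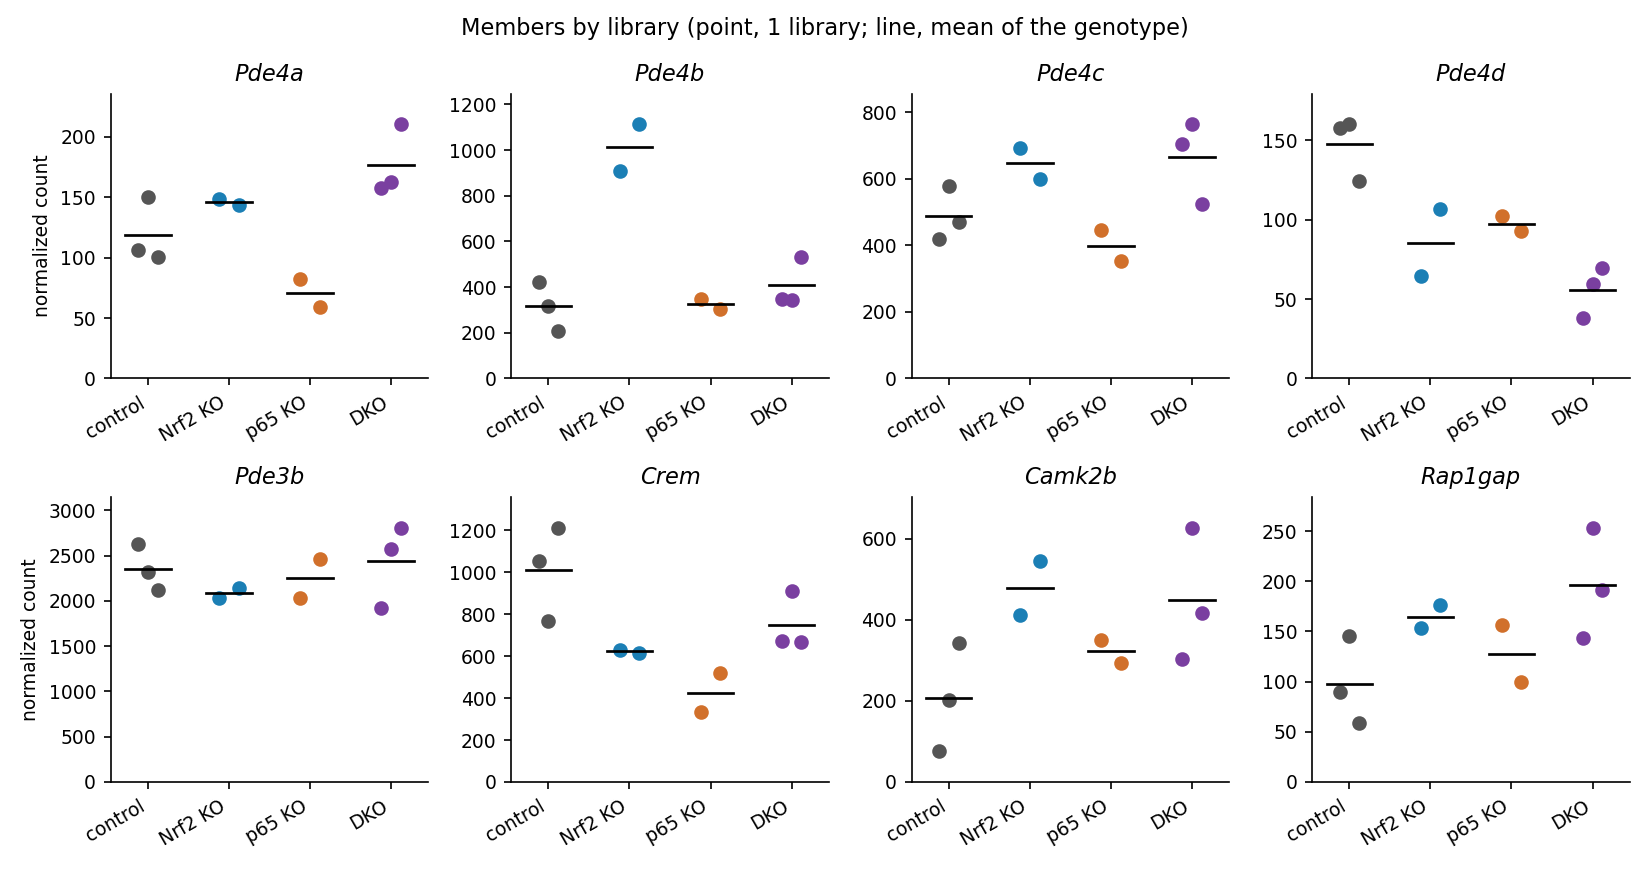
Each panel shows the normalized count of 1 member in the 3 control, 2 Nrf2 KO, 2 p65 KO, and 3 DKO libraries (points) with the mean of the genotype (lines). Pde4b stands out in both Nrf2 KO libraries, Pde4d is lower in all knockout libraries than in control, and Pde3b overlaps in all genotypes.

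Pde3b was the most even of the 8 genes. Its counts were 2632, 2319, and 2115 in control, 2028 and 2147 in Nrf2 KO, 2034 and 2465 in p65 KO, and 1927, 2579, and 2810.3 in DKO. No genotype was separate from control. Log2 fold changes were -0.17 ± 0.164 for Nrf2 KO, -0.07 ± 0.164 for p65 KO, and 0.05 ± 0.147 for DKO.

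Crem, the transcription factor among the members and itself a cAMP-induced gene through its ICER promoter, was highest in control. Its counts were 1054, 767, and 1212 in control, 627 and 617 in Nrf2 KO, 334 and 518 in p65 KO, and 672, 908, and 667 in DKO. Both single knockouts were below all control libraries, p65 KO was below Nrf2 KO, and DKO was above both single knockouts and overlapped control. Against control, log2 fold changes were -0.70 ± 0.23 (Nrf2 KO), -1.25 ± 0.237 (p65 KO), and -0.43 ± 0.203 (DKO). The interaction estimate was 1.51 ± 0.329, the largest of the 8 members in absolute value, followed by Pde4b with -1.36 ± 0.381 and Pde4a with 1.03 ± 0.357.

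Camk2b had the widest spread within genotypes, with an SD of 0.714 on the log2 scale compared with 0.206 for Pde3b. Its counts were 76.2, 203, and 344 in control, 412 and 544 in Nrf2 KO, 350.5 and 293 in p65 KO, and 304, 627, and 417 in DKO. Nrf2 KO was above control, but the control libraries themselves differed widely. The log2 fold change of 1.20 ± 0.457 in Nrf2 KO was 0.81 without control library 1 and 1.77 without control library 3, and that of 1.11 ± 0.421 in DKO was 0.72 and 1.68. In p65 KO, it was 0.62 ± 0.464. An exon of Camk2b overlaps Ykt6 on the opposite strand, the only overlap of a member with another gene of the table. The study's methods give a forward-strand setting for Salmon and a TruSeq library preparation, and the effect of this setting on reads from either strand was not tested.

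Rap1gap was low and variable. Its counts were 89.4, 146, and 58.8 in control, 153 and 176 in Nrf2 KO, 156 and 99.2 in p65 KO, and 143, 254, and 191 in DKO. Only Nrf2 KO was separate from control. Against control, log2 fold changes were 0.75 ± 0.362 (Nrf2 KO), 0.38 ± 0.368 (p65 KO), and 1.00 ± 0.331 (DKO). The value for Nrf2 KO was 0.48 without control library 3 and 1.16 without control library 2.

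**Figure D3:**
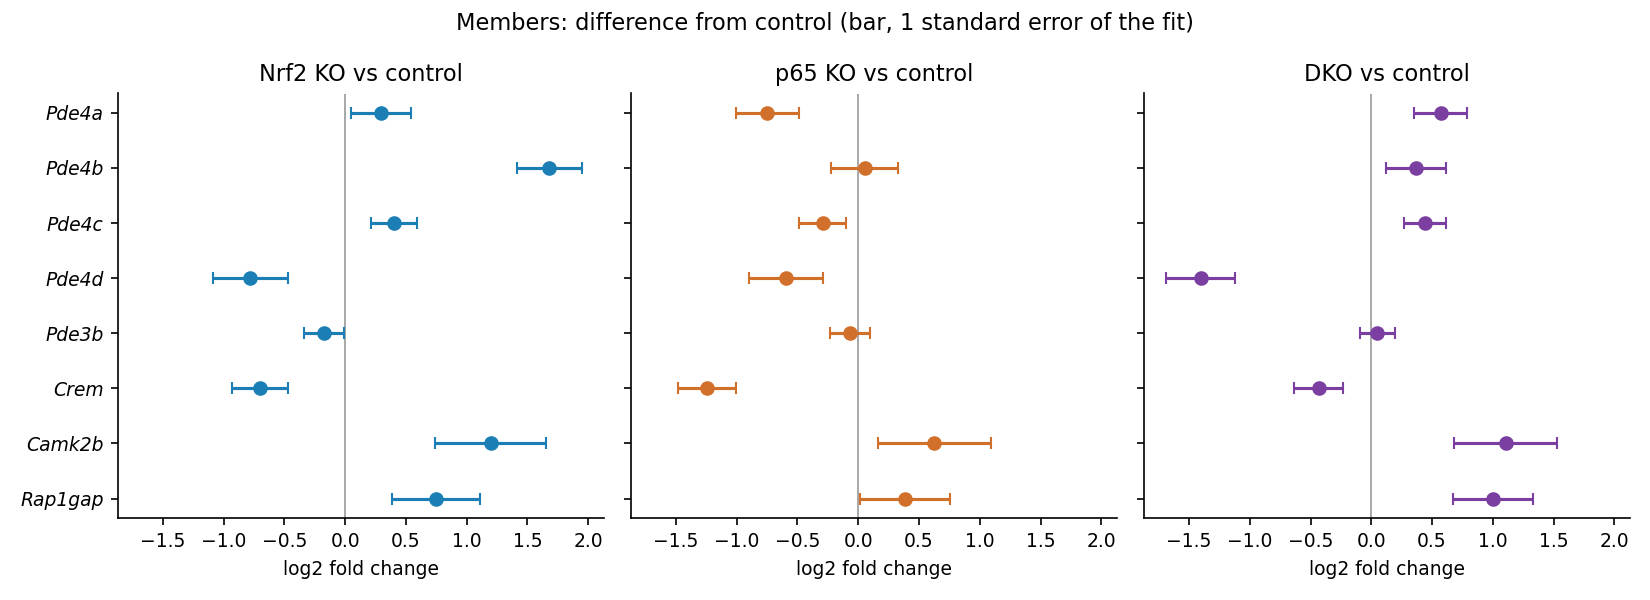
Log2 fold changes of the 8 members against control (x axis) are shown for Nrf2 KO, p65 KO, and DKO, and bars are 1 standard error of the edgeR fit. The largest values are 1.68 for Pde4b in Nrf2 KO, -1.25 for Crem in p65 KO, and -1.40 for Pde4d in DKO, and all 3 comparisons use the same control libraries.

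An adjusted p of at most 0.05 was reached by 1 member in each comparison with control, and nothing is read from these counts because the members were chosen with these values known. In Nrf2 KO it was Pde4b, higher, where 0.132% of all 13641 genes were called higher and 0.594% lower. In p65 KO it was Crem, lower, where 8.13% of genes were called higher and 6.77% lower. In DKO it was Pde4d, lower, where 2.61% were called higher and 2.84% lower. Between DKO and Nrf2 KO, no member was called by edgeR, and the background was 0.323% higher and 0.191% lower. Between DKO and p65 KO it was Pde4a, higher, with 2.05% and 2.06%, and for the interaction no member was called, with 0.264% and 0.205%. Libraries did not overlap control for 6 of 8 members in Nrf2 KO (28.5% of all genes), 3 of 8 in p65 KO (50%), and 2 of 8 in DKO (26.5%). The median log2 fold change of the 8 members was 0.35, -0.18, and 0.41 for Nrf2 KO, p65 KO, and DKO, beside 0.00, 0.00, and 0.02 over all genes.

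Genes with a pattern like that of Pde4b or Pde4d were sought among 10181 other genes whose mean normalized count was 50 or more, by the Pearson correlation of log2(normalized count + 1) over the 10 libraries. For Pde4b, the most similar genes included Agmat (r = 0.928), Ints11 (0.906), Ccdc85c (0.891), and Rfc5 (0.867). Agmat, an agmatinase, was at 7023 ± 240.2 normalized counts in Nrf2 KO (SD, n = 2) and 4743 ± 564 in control (n = 3). Like Pde4b, Agmat and Ints11 lie on chromosome 4, with Agmat at chr4:141473983-141487526. Within 5 Mb of Pde4b, none of 47 tested genes was called in Nrf2 KO by edgeR. Chromosome 4 as a whole held 23 of the 99 genes called in Nrf2 KO, beside 6.29% of the genes tested. Whether position bears on the Pde4b level was not tested. Rap1gap is on the same chromosome, at chr4:137392037-137457177, and 1 of 134 tested genes within 5 Mb of it was called higher and 2 lower.

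For Pde4d, the most similar genes were Suclg2 (r = 0.949), Epb41l5 (0.942), Ctnnal1 (0.933), Stt3b (0.932), and Strbp (0.93). Each had its highest mean in control and its lowest in DKO. Ctnnal1, an alpha-catenin-like protein, was at 113 ± 9.03 normalized counts in control and 65.6 ± 3.64 in DKO, with Nrf2 KO at 79.0 ± 2.63 and p65 KO at 85.8 ± 3.69 between them. Suclg2, a subunit of the mitochondrial succinyl-CoA ligase, had a smaller range, from 9341 ± 263 in control to 7492 ± 607 in DKO. The 10 libraries behind these correlations share their genotypes.

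The wider pathway was described with 10 lists that hold 199 further genes of cAMP and calcium signalling, of which 166 were tested. In Nrf2 KO, 2 of the 166 genes fell and none rose, and 16 had an unadjusted p under 0.05. The 2 genes are 1.20% of the list, with 0.594% over all genes. In p65 KO, 19 rose and 9 fell, or 11.4% and 5.42% of the 166, compared with 8.13% and 6.77% of all genes. Of these 28 genes, 7 had a control mean under 50 normalized counts, and all 7 rose. Of the other 21, 12 rose and 9 fell. In DKO, 6 rose and 2 fell compared with control, or 3.61% and 1.20%, with 2.61% and 2.84% over all genes. These shares are near those of all genes, which are the background for the single lists as well. The median log2 fold change over the 166 genes was 0.06, 0.14, and 0.11, beside 0.00, 0.00, and 0.02 over all genes tested. The adjusted p-values given for these genes are from edgeR's quasi-likelihood test with Benjamini-Hochberg adjustment over all 13641 genes.

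**Figure D4:**
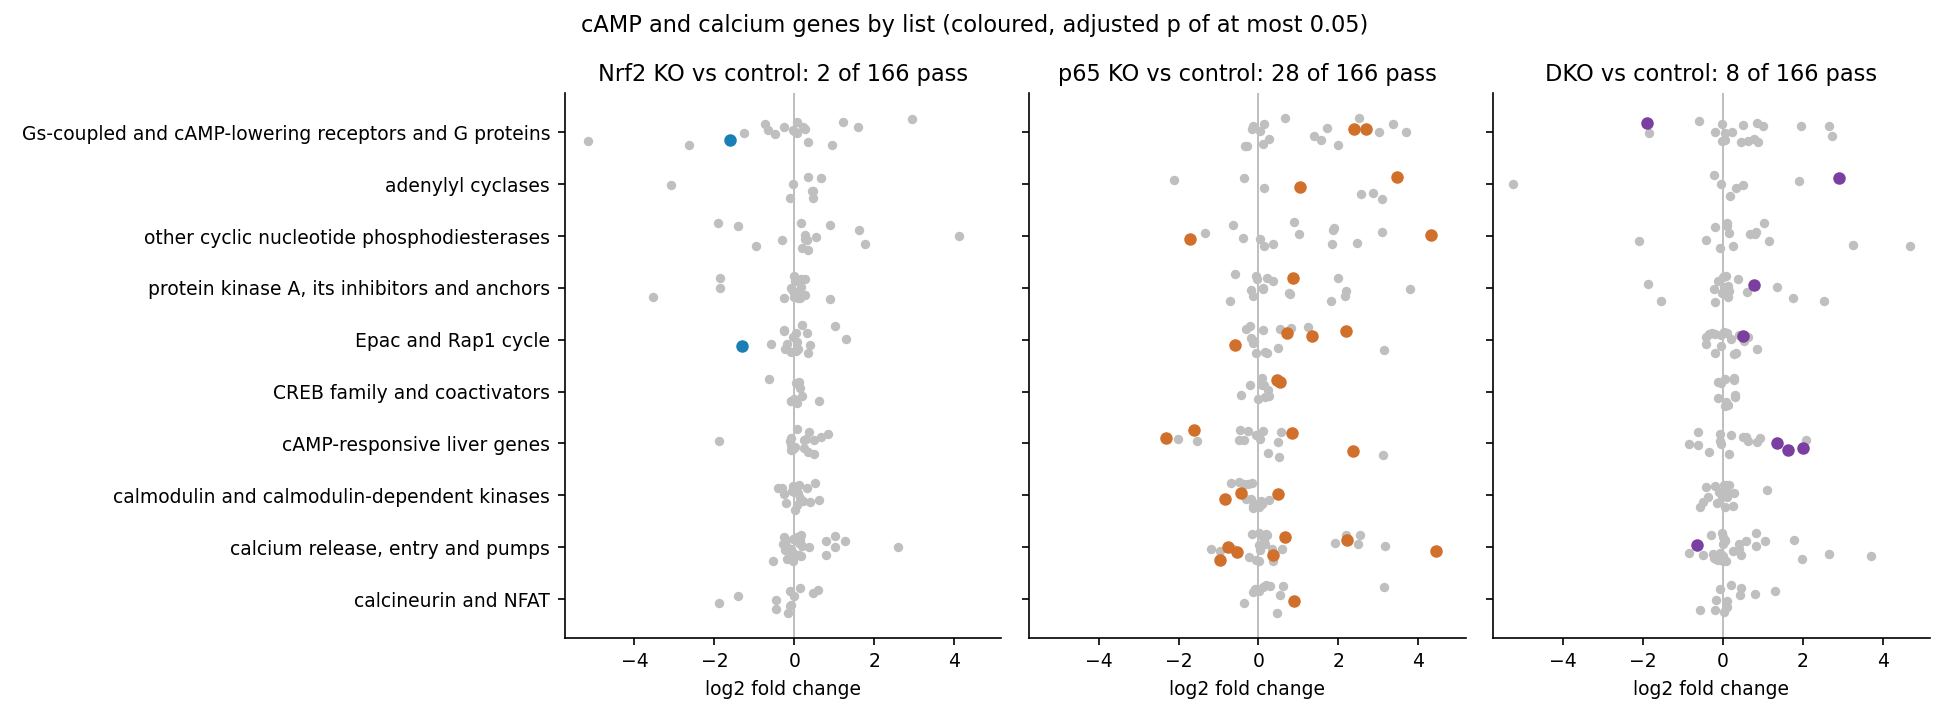
Log2 fold changes against control (x axis) of the 166 tested pathway genes are shown by list (y axis) for Nrf2 KO, p65 KO, and DKO, with genes at an adjusted p of at most 0.05 in color. The colored points number 2, 28, and 8, and those of p65 KO lie on both sides of 0.

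Of the receptors and G proteins that raise or lower cAMP, the glucagon receptor gene Gcgr had the highest level per length and did not pass in any comparison with control, with log2 fold changes of 0.06, -0.16, and -0.01. Adora1, the adenosine A1 receptor, which lowers cAMP through Gi, fell in the libraries labelled Nrf2 KO and DKO. Its counts were 872, 729, and 817 in control, 212 and 313 in Nrf2 KO, 1593 and 959 in p65 KO, and 159, 287, and 201 in DKO. All Nrf2 KO and DKO libraries were below all others. It changed by -1.62 ± 0.282 in Nrf2 KO (adjusted p = 0.0294), -1.90 ± 0.25 in DKO (adjusted p = 0.00265), and -2.56 ± 0.269 in DKO against p65 KO (adjusted p = 0.00122). The call in Nrf2 KO was lost when any 1 of the control or Nrf2 KO libraries was left out, with adjusted p up to 0.264 over all alternatives. Vipr1 and Pth1r, receptors for VIP and parathyroid hormone, rose in p65 KO by 2.39 ± 0.511 and 2.69 ± 0.653 on the log2 scale (adjusted p = 0.0141 and 0.0219). Their control counts were low, at 37.4 to 60.7 for Vipr1 and 4.92 to 17.7 for Pth1r. Both calls were lost without control library 1 or p65 KO library 1, and that of Pth1r also without control library 2 or p65 KO library 2, with adjusted p up to 0.0961 and 0.107 over all alternatives.

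Among the adenylyl cyclases, Adcy6, which calcium inhibits, had the highest level per length and rose in p65 KO alone among the comparisons with control. Its counts were 638, 658, and 629 in control, 602 and 593 in Nrf2 KO, 1368 and 1281 in p65 KO, and 551, 673, and 644 in DKO. The p65 KO libraries were separate from all others. It changed by 1.04 ± 0.113 in p65 KO (adjusted p = 0.000763), and -1.09 ± 0.113 in DKO against p65 KO (adjusted p = 0.00118). The interaction passed for this gene as the only one of the 166 (-0.99 ± 0.161, adjusted p = 0.0316), but not when any 1 control, Nrf2 KO, or p65 KO library was left out, with adjusted p up to 0.133. Adcy4 rose in p65 KO and in DKO, by 3.47 ± 0.633 and 2.90 ± 0.601 (adjusted p = 0.00698 and 0.0221), from 4.42 to 6.88 normalized counts in control, where counting error is large. The call in DKO was lost without any 1 of 5 control or DKO libraries, with adjusted p up to 0.089.

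Of the 15 other phosphodiesterases tested, 1 rose and 1 fell in p65 KO, and none passed in Nrf2 KO or DKO, so that the share called in p65 KO was 6.67% in each direction, beside 8.13% and 6.77% of all genes. Pde9a, which is specific for cGMP, was at 773, 901, and 705 normalized counts in control, 895 and 1065 in Nrf2 KO, 273 and 211 in p65 KO, and 778, 733, and 580.1 in DKO. Only the p65 KO libraries were separate. The log2 fold change was -1.71 ± 0.185 in p65 KO (adjusted p = 0.000763) and 1.53 ± 0.184 in DKO against p65 KO (adjusted p = 0.00303), and both calls held in every alternative and without any 1 library. Pde3a, the relative of Pde3b best known from heart and smooth muscle, rose in p65 KO by 4.31 ± 1.27 (adjusted p = 0.0445), from 0 to 1.1 counts in control to 14.2 and 17.0, and this call was lost without any 1 of 8 libraries. Pde8a, which had the highest mean level per kb of merged exons among these 15 over all libraries, was at 1103 ± 64.3 in control. It did not pass in any comparison with control.

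Rapgef4, which encodes the Epac2 exchange factor and led the Epac and Rap1 list in level, fell in Nrf2 KO. It was at 6851, 5675, and 9994 in control, 2784 and 3283 in Nrf2 KO, 7464 and 8658 in p65 KO, and 5135, 7820, and 6692 in DKO. Both Nrf2 KO libraries were below all others. The log2 fold change was -1.31 ± 0.242 (adjusted p = 0.0411), and the call was lost without any 1 of 6 libraries (control 1 or 3, either Nrf2 KO, or either p65 KO), with adjusted p up to 0.313. In p65 KO, Rapgef5 and Sipa1l2, an exchange factor and a GAP for Rap proteins, rose by 2.20 ± 0.487 and 1.34 ± 0.309 (adjusted p = 0.0159 and 0.0185). Their control counts were 22.1 to 48.2 and 89.4 to 104. Both calls were lost without control library 1 or p65 KO library 1, with adjusted p up to 0.129 and 0.192 over all alternatives.

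Of 18 protein kinase A genes, inhibitors, and anchors, 1 rose in p65 KO and 1 in DKO, and both times it was the anchor Akap8, named after its values were seen (0.87 ± 0.148 and 0.77 ± 0.135, adjusted p = 0.00527 and 0.0111). Prkaca, the main catalytic subunit, did not pass in any comparison with control. Among 11 genes of the CREB family and its coactivators, 2 rose in p65 KO and none passed in Nrf2 KO or DKO. Crebl2 had the highest level of that list and was 1 of the 2, with 0.53 ± 0.108 (adjusted p = 0.0115).

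Of 18 liver genes known to respond to cAMP, none passed in Nrf2 KO, 2 rose and 2 fell in p65 KO, and 3 rose in DKO. In p65 KO this is 11.1% in each direction, beside 8.13% and 6.77% of all genes, and in DKO 16.7% higher, beside 2.61%. G6pc1, the catalytic subunit of glucose-6-phosphatase, was at 38693, 19935, and 11361 in control, 29214 and 16490 in Nrf2 KO, 7968 and 7281 in p65 KO, and 37562, 42099, and 29690 in DKO. Both p65 KO libraries were below all others. The log2 fold change was -1.61 ± 0.431 in p65 KO (adjusted p = 0.0316) and 2.26 ± 0.445 in DKO against p65 KO (adjusted p = 0.0233). The call in p65 KO was lost with libraries scaled to equal totals and without control library 1 or 2 or either p65 KO library, with adjusted p up to 0.162. The call in DKO against p65 KO was lost without either p65 KO library or DKO library 1, with adjusted p up to 0.133. Igfbp1, a secreted binding protein for insulin-like growth factors, also fell in p65 KO (-2.32 ± 0.611, adjusted p = 0.03). Tat, tyrosine aminotransferase, rose in DKO by 1.62 ± 0.263 (adjusted p = 0.00766) and Sds, serine dehydratase, by 1.35 ± 0.324 (adjusted p = 0.0363). Per1, a clock gene that cAMP also induces, rose by 2.36 ± 0.489 in p65 KO and 2.00 ± 0.456 in DKO (adjusted p = 0.0124 and 0.0301). Of these calls, that of Tat held without any 1 library, whereas those of Igfbp1, Sds, and Per1 were lost without at least 1, with adjusted p up to 0.141, 0.139, and 0.0828 (Per1 in p65 KO) or 0.122 (Per1 in DKO). Pck1 had the highest level of the list, and its log2 fold changes of -0.08, -0.36, and 0.85 did not pass.

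**Figure D5:**
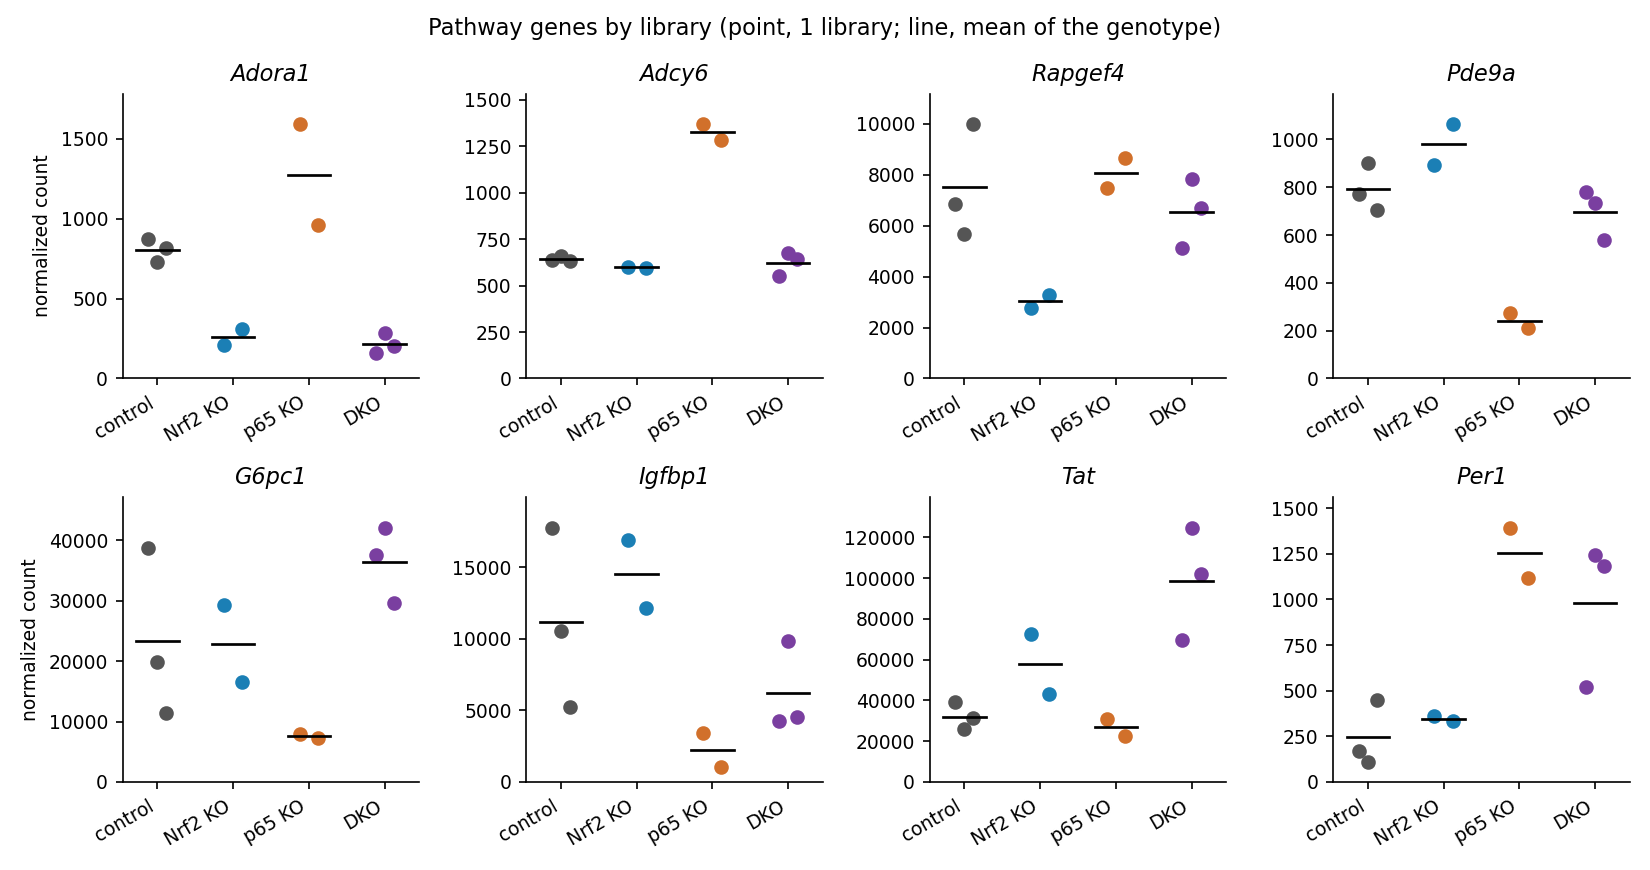
Each panel shows the normalized count of 1 pathway gene in the 10 libraries (points) with the mean of the genotype (lines). Adora1 is lowest in Nrf2 KO and DKO, Rapgef4 in Nrf2 KO, and Pde9a and G6pc1 in p65 KO, whereas Adcy6 is highest in p65 KO.

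Of 17 genes of calmodulin and its kinases, 1 rose and 2 fell in p65 KO, with Calm2, the highest of the list, at -0.43 ± 0.119 (adjusted p = 0.0363). Of 30 genes of calcium release, entry, and pumps, 4 rose and 3 fell in p65 KO and 1 fell in DKO. These are 13.3% and 10% of the list in p65 KO, beside 8.13% and 6.77% of all genes, and 3.33% in DKO, beside 2.84%. Atp2b4, a plasma membrane calcium pump, and Plcb2, a phospholipase C known from blood cells, rose in p65 KO by 2.22 ± 0.386 and 4.44 ± 1.11 (adjusted p = 0.0057 and 0.0244). Control counts were low for both, at 14.4 to 19.7 for Atp2b4 and 0 to 0.983 for Plcb2. The call of Atp2b4 was lost without p65 KO library 1 (adjusted p = 0.0647), and that of Plcb2 without that library or any 1 control library, with adjusted p up to 0.225 over all alternatives. Adra1b, the receptor through which adrenaline releases calcium in hepatocytes, had the highest level per merged exon and was at -0.76 ± 0.165 in p65 KO (adjusted p = 0.0151). Mcu, the mitochondrial calcium uniporter, was the gene that fell in DKO (-0.63 ± 0.126, adjusted p = 0.0189) and was named after its values were seen. Mcu was also 1 of the 3 genes that fell in p65 KO (-0.95 ± 0.144, adjusted p = 0.00327 by edgeR). Of 12 calcineurin and NFAT genes, 1 rose in p65 KO, and Ppp3r1, the highest of them, did not pass in any comparison with control.

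Markers of several other cell types moved with p65 KO, where the 28 pathway genes were called. All 12 markers of Kupffer cells and macrophages, 10 of 10 of sinusoidal endothelial cells, and 8 of 10 of stellate cells rose in p65 KO (edgeR), with sums of 4518 to 6236, 4234 to 5718, and 2023 to 2079.6 normalized counts compared with 375 to 951, 783 to 1655, and 197 to 412 in control. In DKO, the numbers were 6 of 12, 2 of 10, and 1 of 10, with sums of 1706 to 2935, 2151 to 3062, and 379 to 982. In Nrf2 KO, none of these markers passed, at 263 and 816, 1020.1 and 1951, and 186 and 317. No marker of the 3 lists was at 0 in all p65 KO libraries, and the part of these cells in the pathway results was not tested.

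Scaling the libraries to equal totals instead of TMM shifted the median of all genes by 0.18 on the log2 scale in p65 KO and by -0.27 in DKO against p65 KO. Of all genes called, 82.1% instead of 54.6% were then higher in p65 KO, 27.4% instead of 47.9% in DKO, and 7.70% instead of 49.9% in DKO against p65 KO. Among the pathway genes, the split became 27 that rose and 3 that fell in p65 KO and 5 and 5 in DKO. In DKO against Nrf2 KO, none of the 166 pathway genes passed with edgeR (22 had an unadjusted p under 0.05), whereas DESeq2 called 6. Of all 13641 genes, DESeq2 called 328 higher and 176 lower in this comparison, and edgeR called 44 and 26. In DKO against p65 KO, 5 rose and 3 fell, and besides Adcy6, Adora1, Pde9a, and G6pc1 these included Tat (1.89 ± 0.308, adjusted p = 0.0117).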

How the data were processed

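Poly(A)-selected RNA of hepatocytes from 10 mice was sequenced from TruSeq libraries. The authors quantified reads with Salmon 1.10.3 against GRCm39 transcripts of GENCODE M33 and tested with DESeq2 1.42.1. They deposited estimated counts per gene as whole numbers, in 1 table that is named as normalized although totals differ between libraries (33707165 to 49897382), so the values were taken as estimated counts that had not been normalized. For genes with many counts, counting error is small at this depth and the number of mice limits precision. For genes with few counts, such as Pde3a, Plcb2, and Adcy4 in control, counting error is large. Salmon was run with a forward-strand setting according to the methods, and whether it matched the library kit was not tested. Whether single genes were rescaled before deposit was not tested.

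The test was the quasi-likelihood test of edgeR 4.0.16 (R 4.3.3) with TMM scaling, on genes with 10 or more counts in total, with all 4 genotypes in 1 model and Benjamini-Hochberg adjustment over 13641 genes. Normalized counts are TMM-scaled. "Rose" and "fell" mean an adjusted p of at most 0.05. Each number after ± is an SE for a log2 fold change and an SD for a level. Members and gene lists were chosen with earlier results of these data known. Pathway genes named with values were, for each knockout against control, up to 20 with the lowest p among called genes whose log2 fold change was at least 1 or at most -1, up to 5 for the other comparisons, and the gene of each list with the highest level per length. One gene is not reported here. Other names were added after their values were seen. Alternatives were DESeq2 1.42.0, limma 3.58.1 with pseudocounts of 1 and 10, other scalings and filters, a block for the replicate number, fits of 2 genotypes alone, and fits without 1 library. Lengths, positions, and windows came from GRCm39 with GENCODE M39, which held 21926 of the 21939 identifiers, and levels per length used merged exons. Ranking by the longest transcript put Pde9a above Pde8a and Atp2a2 above Adra1b. Replicates of a genotype differed by more than sampling noise (chi-square per degree of freedom of 44.8 to 204), so each library counted once. Plots used matplotlib 3.10.9 (Python 3.11.15). No column of the table was left unused.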

Additional observations from a re-analysis of the deposited data

Results flagged for a closer look

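Of the tested pathway genes, Adcy6 was flagged because its response to p65 loss differed with and without Nrf2 in the test of the interaction (-0.99 ± 0.161 on the log2 scale, adjusted p = 0.0316 by edgeR). The call was lost with the replicate number as a block and without any 1 control library. In fits without 1 library, the estimate was -1.05 to -0.90. Both p65 KO libraries were above all 3 control libraries, whereas the DKO libraries overlapped Nrf2 KO.

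Among the members, Pde4a and Crem were flagged because every p65 KO library was below every control library while every DKO library was above every Nrf2 KO library. The interaction estimate was 1.03 ± 0.357 for Pde4a and 1.51 ± 0.329 for Crem, and the difference was not tested because the members were chosen with these values known. Crem was also flagged for Nrf2, since both Nrf2 KO libraries were below control and all DKO libraries were above p65 KO (the same estimate of 1.51). Genotypes with 2 or 3 libraries are too small for a check of single outlying libraries.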

How the results depend on the processing

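Whether mice with the same replicate number were paired could not be decided. Of 13 pairs of libraries with the same number, 1 had a correlation of deviations over 0.1 (range -0.232 to 0.113). In a genotype with 2 libraries the deviations from the mean mirror each other, so that these pairs are not independent. With the replicate number as a block, the count of pathway genes passing was 0 instead of 2 in Nrf2 KO, 16 instead of 28 in p65 KO, and 5 instead of 8 in DKO against p65 KO. With only the 2 genotypes compared, it was 1 in Nrf2 KO and 5 in DKO against p65 KO. DESeq2 called 14 instead of 8 in DKO, 6 instead of 0 in DKO against Nrf2 KO, 17 in DKO against p65 KO, and 5 instead of 1 for the interaction. It also called more of all genes. In DKO, 734 were higher and 712 lower, instead of 356 and 387 by edgeR. In DKO against p65 KO, these were 637 and 654 instead of 280 and 281. For the interaction, they were 223 and 177 instead of 36 and 28. Without a filter on low counts, 2 passed in DKO against Nrf2 KO and 2 for the interaction, and with equal totals 22 passed in DKO against p65 KO. The causes were not tested. Leaving out 1 library gave 0 to 2 in Nrf2 KO, 9 to 31 in p65 KO (9 without p65 KO library 1), 3 to 9 in DKO (3 without control library 1), 0 to 1 in DKO against Nrf2 KO, 3 to 10 in DKO against p65 KO (3 without p65 KO library 1), and 0 to 3 for the interaction.

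For the members, the log2 fold change without 1 library was 1.45 to 1.94 for Pde4b, 0.81 to 1.77 for Camk2b, and 0.48 to 1.16 for Rap1gap in Nrf2 KO, -1.60 to -0.96 for Crem in p65 KO, and -1.59 to -1.18 for Pde4d, 0.72 to 1.68 for Camk2b, and 0.74 to 1.40 for Rap1gap in DKO. For Pde4b in DKO against Nrf2 KO it was -1.54 to -1.16. Of 36 member fold changes, 31 stayed within the spread between replicates in every other alternative. The other 5 moved with equal totals, for example Pde4a in DKO against p65 KO from 1.32 to 1.05 and Pde4c from 0.74 to 0.47. For the 26 results of named pathway genes, 217 of 231 alternative fits and 190 of 260 fits without 1 library kept the call, and none changed direction. Without p65 KO library 1, 9 of the p65 KO calls were lost (Atp2b4, Per1, Vipr1, Rapgef5, Sipa1l2, Pth1r, Plcb2, G6pc1, and Pde3a, adjusted p from 0.0647 to 0.225 by edgeR), and without control library 1 another set of 9, with Igfbp1 in place of Atp2b4 (0.0504 to 0.104). Between 1 and 5 of them were lost without control 2 or 3, p65 KO 2, Nrf2 KO 1 or 2, or DKO 2. In DKO, up to 3 calls (Adcy4, Per1, and Sds) were lost without a control or DKO library, and Sds also without either p65 KO library (0.0504 to 0.139). In DKO against p65 KO, Tat and G6pc1 were lost without either p65 KO library and G6pc1 without DKO library 1 (0.0613 to 0.133). With the longest transcript as length, Pde3b stayed highest in control (9.21 CPM per kb) and Pde4d lowest (0.544).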

Other observations

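Chromosome 4, which carries Pde4b and Rap1gap, held 23 of the 99 genes called in Nrf2 KO (23.2%), compared with 6.29% of the genes tested. In p65 KO and DKO its share of called genes was 6.59% and 8.88%. In Nrf2 KO, 12 of the 23 genes started between 140 and 160 Mb, among 155 tested there, and 6 of 147 tested genes between 100 and 120 Mb were called, Pde4b among them. These segments were chosen after the values were seen. Of the 23 genes, some passed in Nrf2 KO but not in DKO. Examples are Tmem51 (log2 fold changes of 2.79 and -0.23) and Arhgef16 (-2.47 and 0.04). Others passed in both, such as Cda (-1.65 and -2.16) and Prxl2b (1.79 and 1.11). Pde4b was at 1.68 and 0.37. These examples were also picked after their values were seen, and the cause was not tested.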
